A study of Mus musculus with 2 samples.

Results

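Snhg11, Malat1, Neat1 and Snhg18 are genes of long noncoding RNAs, and they are 4 of the 32285 genes counted in single-cell libraries of the mouse pituitary. They were picked by symbol, chosen by their levels and age ratios in these same libraries, so all values here are a description. The glands came from male C57BL/6 mice, an inbred strain, aged 20 months (old) or 2 months (young), with no genetic change or treatment in the labels. Each age is 1 library made from 10 pooled glands, which were kept in storage solution, dissociated, strained and freed of red cells by lysis before droplet-based 3′ RNA sequencing. With 1 library per age there is no replicate check and no test. The 95% intervals below reflect counting alone and say nothing of how mice or preparations vary.

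Malat1 is an abundant RNA that stays in the nucleus, where it gathers at nuclear speckles, bodies rich in splicing factors. Neat1 is the scaffold of another nuclear body, the paraspeckle. Its short form ends in a poly(A) tail, and its long form, the one that builds the body, does not. Snhg11 and Snhg18 are small nucleolar RNA host genes, whose introns carry small RNAs that guide modification of other RNAs. Snhg11 is known from mouse brain as an RNA of neurons.

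The libraries were read from poly(A) tails, so the 3′ ends of the RNAs decide what can be captured. The last 30 bases of 1 annotated transcript of each gene, both forms of Neat1 included, are printed here from the GENCODE M21 annotation of GRCm38. The files were made on GRCm39, so no positions are given. The capitals mark a poly(A) signal, AATAAA or ATTAAA.
Malat1 (chromosome 19, minus strand): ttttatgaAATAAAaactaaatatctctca
Neat1, short form (chromosome 19, minus strand): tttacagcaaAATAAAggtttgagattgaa
Neat1, long form (chromosome 19, minus strand): gagaacgaacgtgagcaggaaaaagcaaaa
Snhg11 (chromosome 2, plus strand): gaaccacaaAATAAAcactgtcttccttaa
Snhg18 (chromosome 15, minus strand): cagaaATTAAAgcattctagaaatctacaa
AATAAA lies in this window of Malat1, Snhg11 and the short Neat1, and ATTAAA in that of Snhg18. The window of the long Neat1 holds neither. For reference, AATAAA is found on the sense strand in the last 30 bases of 23.3% of 141722 annotated transcripts and ATTAAA in 7.1%. The annotated Malat1 transcript also holds an inner run of 12 A, shown in capitals, which begins 310 bases before its annotated end.
Malat1, inner run: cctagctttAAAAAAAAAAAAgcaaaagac
An oligo-dT primer can also anneal to such a run, so a UMI of Malat1 need not come from the annotated end. The counts do not tell the places apart, and where Malat1 ends in these cells was not tested. The transcripts are 6983 (Malat1), 3004 and 20771 (Neat1, short and long), 5864 (Snhg11) and 1486 bases long (Snhg18). RefSeq lists all 4 genes as long noncoding RNAs, whereas GENCODE M21 lists the Snhg11 transcript as protein coding.

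The old library held 138427393 unique molecular identifiers (UMIs, each 1 captured RNA molecule) and the young one 154510099. Barcodes with at least 2000 UMIs, after filters, numbered 9017 in the old and 8531 in the young library, and 26 of these barcodes occur in both libraries. Of those kept, 5547 old barcodes (61.5%) and 1 young barcode formed a cluster with the profile of empty droplets, called the free RNA cluster. Outside it were 3470 old and 8530 young barcodes, with medians of 5849 and 6313 UMIs, 14 of them shared. Clusters were named from marker genes, and every named class had at least 4 of its markers above their level in barcodes of at most 100 UMIs. In young pituicyte-like cells the marker Vcan was at 0. Levels are given as CPM, the UMIs of a gene scaled to the same fixed total in every class, and 7 hormone genes and 13 mitochondrial genes were kept out of that total. A ratio is the old level over the young one, and ratios are reported for 10 classes, those with 50 cells or more at both ages. Orders of levels cover the 16 classes that held 20 cells or more at both ages, and oligodendrocyte-like cells, 38 in the old library, are given apart.

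**Figure D1:**
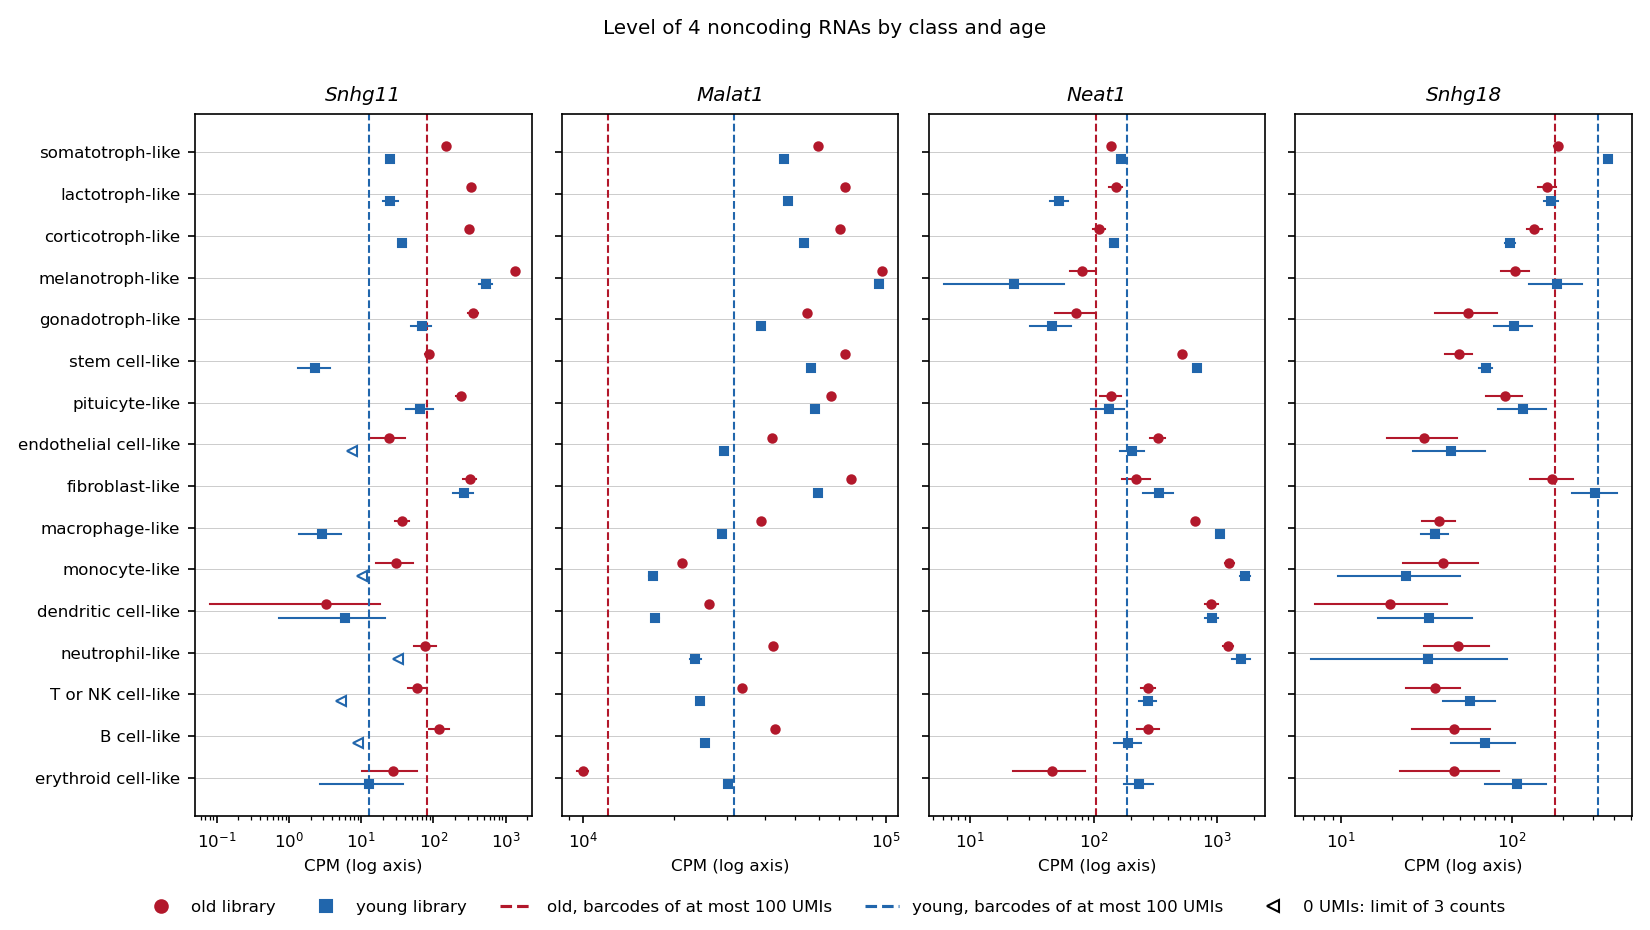
Level of each RNA in CPM (log axis) in each cell class of the old library and the young library, with 95% Poisson intervals, and dashed lines for barcodes of at most 100 UMIs. Snhg11 was highest in melanotroph-like cells, Neat1 in monocyte-like cells and Snhg18 in somatotroph-like cells of both libraries, the last 2 with intervals that overlapped those of the next class.

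Snhg11 was higher in the old library in all 10 classes compared. In somatotroph-like cells, the growth hormone producers, it stood at 152 CPM (1146 UMIs in 1133 cells) in old glands, against 24.9 CPM (669 UMIs in 3954 cells) in young glands. The ratio was 6.09 (5.53 to 6.71), and 57 of 14742 genes reached as high a ratio in this class. In lactotroph-like cells, which make prolactin, Snhg11 was at 330 CPM in the old and 25.5 CPM in the young library, a ratio of 12.9 (10.1 to 16.8). Corticotroph-like cells, the source of adrenocorticotropin, held 309 CPM in old and 37.1 CPM in young glands, a ratio of 8.33 (7.28 to 9.55). The endocrine classes thus differed in the same direction, each by more than counting error.

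The gap in stem cell-like cells was the widest of those with a measured ratio. They held 208 UMIs in 280 old cells (87.0 CPM) and 17 UMIs in 977 young cells (2.32 CPM), a ratio of 37.5 (22.9 to 65.6). In macrophage-like cells Snhg11 was at 37.3 CPM in the old and 2.84 CPM in the young library, a ratio of 13.1 (6.79 to 28.4). Pituicyte-like cells, the glia of the posterior lobe, had the lowest ratio at 3.61 (2.31 to 5.91), with 239 CPM in old and 66.1 CPM in young glands. There 1 young cell carried 77.3% of the young UMIs, and the ratio was 2.11 as a mean over cells and 1.37 with cells thinned to 2000 UMIs.

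In the other 4 classes the young library had no Snhg11 UMI at all. A floor of 3 counts over the group was set for the young class. The bounds on the ratio were 13.2 in B cell-like cells (42 old UMIs) and 11.5 in T or NK cell-like cells (54 old UMIs). They were 3.29 in endothelial cell-like cells (15 old UMIs) and 2.95 in monocyte-like cells (13 old UMIs). These bounds take the old counts as exact. The lower limits of the counting intervals of the ratio were smaller, at 10.3 in B cell-like and 9.02 in T or NK cell-like cells. The limits were 2.36 in endothelial cell-like and 2.07 in monocyte-like cells. A single cell carried 45.2% of the UMIs in old B cell-like cells and 84.6% of those in old monocyte-like cells, where the RNA was found in 2 cells.

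The ratio or bound of at least 2 for Snhg11 in each of the 10 classes, lost in pituicyte-like cells after thinning, stands beside the same count over all genes with at least 20 UMIs. The share of genes at least 2-fold higher in the old library was 5.32% in somatotroph-like, 4.01% in corticotroph-like, 6.68% in lactotroph-like, 8.94% in pituicyte-like and 4.39% in stem cell-like cells. It was 7.06% in endothelial cell-like, 7.2% in macrophage-like, 5.24% in monocyte-like, 8.66% in T or NK cell-like and 10.5% in B cell-like cells. Snhg11 was chosen on these ratios, so nothing more is read from the count.

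**Figure D2:**
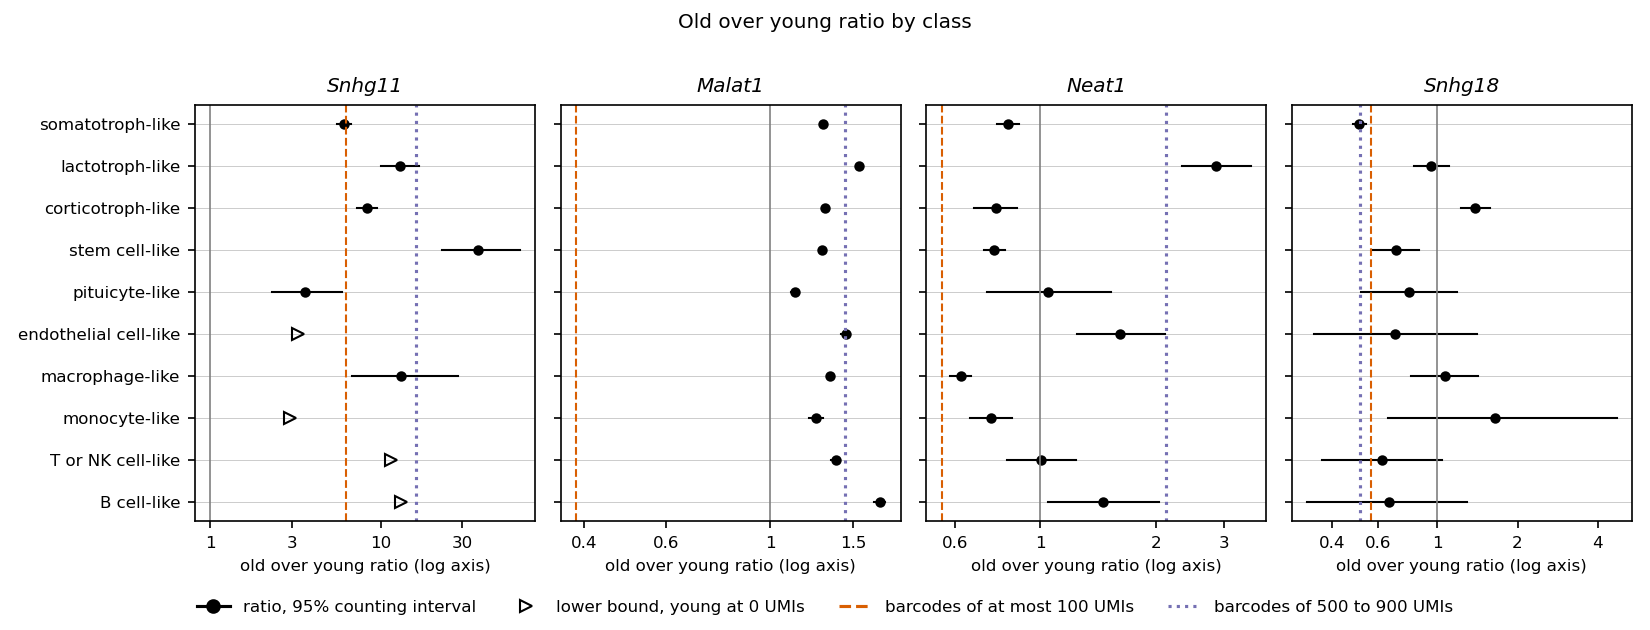
Old over young ratio of each RNA (log axes, 1 panel per RNA) in 10 cell classes, with 95% counting intervals, arrows for lower bounds, a grey line at 1, a dashed line for the ratio in barcodes of at most 100 UMIs and a dotted line for that in barcodes of 500 to 900 UMIs. Snhg11 lies above 1 in every class, Malat1 between 1.13 and 1.71, and Neat1 on both sides of 1.

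Melanotroph-like cells, the endocrine cells of the intermediate lobe, had the most Snhg11 in both libraries, 1331 CPM in 148 old cells and 533 CPM in 40 young cells. The next levels in the old library, from gonadotroph-like (358 CPM), lactotroph-like and fibroblast-like to corticotroph-like cells, overlapped from neighbour to neighbour in their counting intervals. In the young library fibroblast-like cells (262 CPM, 31 cells) came next, apart from gonadotroph-like cells (68.6 CPM, 63 cells). Fibroblast-like cells had 321 CPM in 39 old cells, close to that young value. Thinned to 2000 UMIs per cell, 96 of 148 old (64.9%) and 16 of 40 young melanotroph-like cells had a Snhg11 UMI, and before thinning the shares were 81.8% of old and 52.5% of young cells.

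The same thinning gave 34.3% of old and 4.65% of young lactotroph-like cells, 33.4% and 4.59% of corticotroph-like cells, and 13.1% and 2.81% of somatotroph-like cells. In the old free RNA cluster, with a median of 2709 UMIs against 6642 in old somatotroph-like cells, 8.58% of barcodes had a Snhg11 UMI. Old stem cell-like (5.71%), B cell-like (6.02%), endothelial cell-like (5.13%), T or NK cell-like (3.61%) and macrophage-like cells (2.39%) were below that share, and no expression is read from it. The young shares were 0.307% in stem cell-like and 0.266% in macrophage-like cells, and 0 in the other 3 of these classes. A limit of 3 counts then allows a UMI in up to 2.42% of B cell-like, 3.53% of endothelial cell-like and 2.04% of T or NK cell-like cells.

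The RNA outside cells differed in the same direction. Barcodes of at most 100 UMIs held Snhg11 at 80.4 CPM (1314 UMIs) in the old and 12.9 CPM (28 UMIs) in the young library, a ratio of 6.22. Barcodes of 500 to 900 UMIs, of which there were 16496 in the old and 58887 in the young library, held 72.8 and 4.52 CPM, a ratio of 16.1. Old stem cell-like cells were thus at 1.08 times, and old macrophage-like cells at 0.464 times, the level of the smallest barcodes of their library. Old lactotroph-like, corticotroph-like and melanotroph-like cells were at 4.10, 3.84 and 16.6 times that level. Somatotroph-like cells held 152 CPM in the old and 24.9 CPM in the young library, a ratio of 6.09 beside 6.22 in the smallest barcodes. The part of free RNA in the age ratios was not tested.

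**Figure D3:**
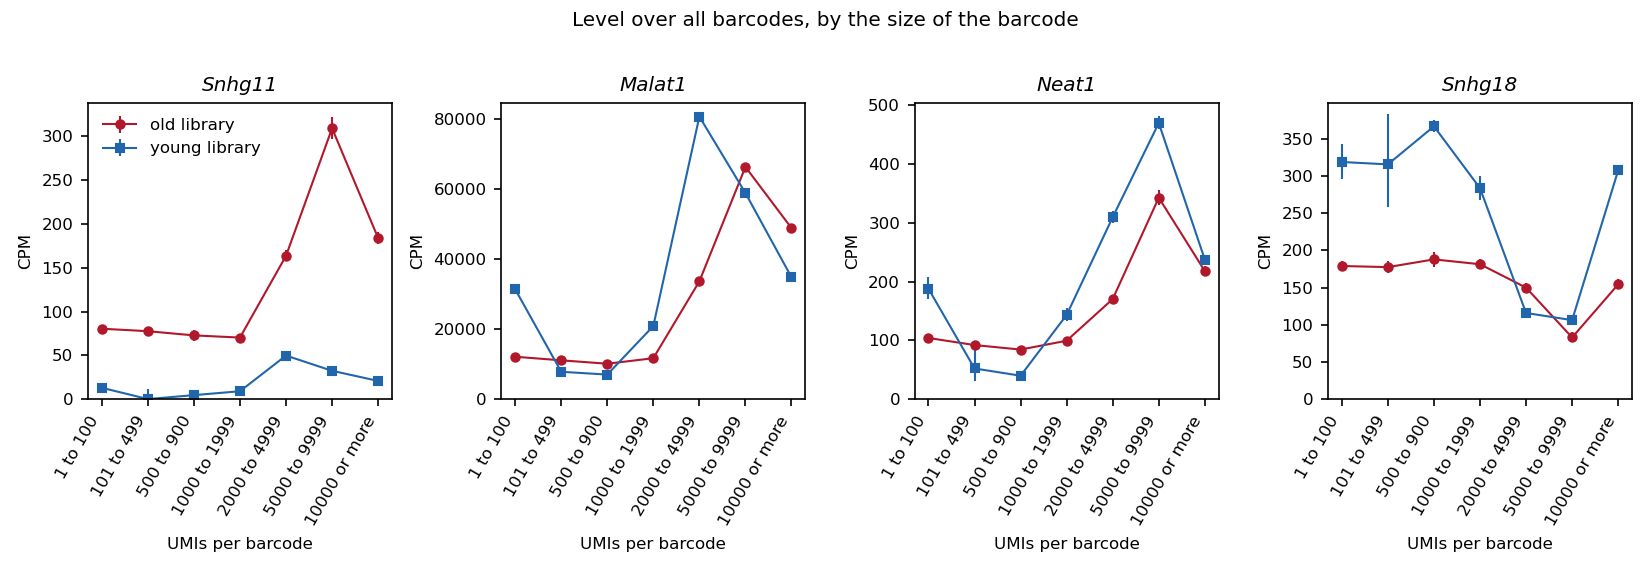
Level of each RNA in CPM (linear axis) over ranges of UMIs per barcode, for the old library and the young library, with 95% Poisson intervals. Old Snhg11 lies between 70.3 and 80.4 CPM in all ranges below 2000 UMIs and higher above them.

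Growth hormone mRNA (Gh), found in every class, gives another scale. Per 1000 Gh UMIs, the smallest barcodes held 0.169 Snhg11 UMIs in the old and 0.0163 in the young library. Somatotroph-like cells held 0.289 in the old and 0.0297 in the young library. Stem cell-like cells held 1.62 and 0.0477, and macrophage-like cells 0.567 and 0.0358 (old and young). T or NK cell-like cells held 1.11 per 1000 Gh UMIs in the old library and none in the young one. Corticotroph-like cells were at 8.80 in the old and 0.670 in the young library, and melanotroph-like cells at 16.6 and 6.40. These values differ between classes in Gh as well as in Snhg11, no expression is read from those of stem cell-like, macrophage-like and T or NK cell-like cells, and the part of free RNA was not tested.

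**Figure D4:**
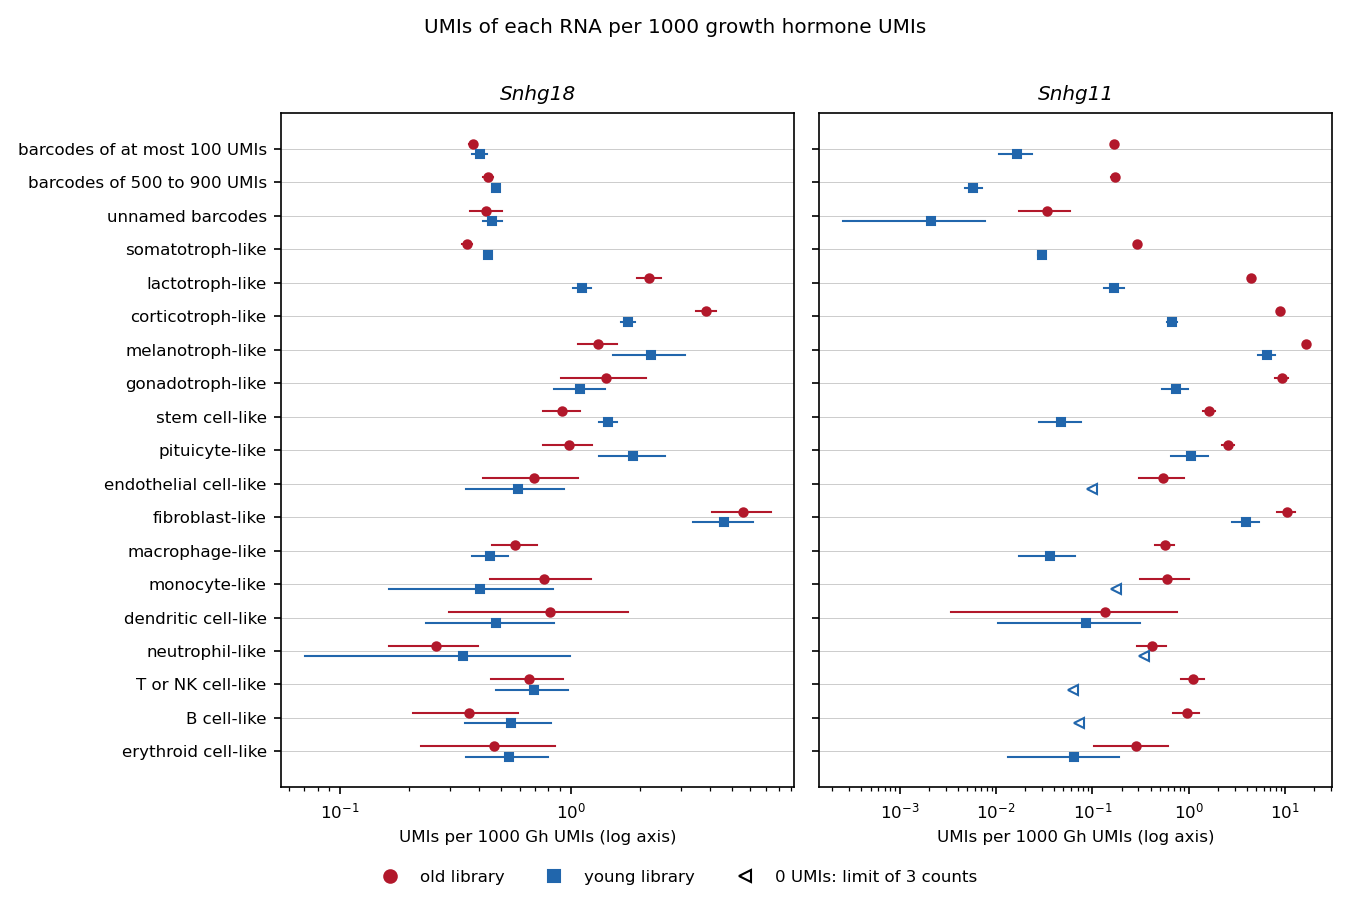
Snhg11 and Snhg18 UMIs per 1000 Gh UMIs (log axis) in barcodes of at most 100 and of 500 to 900 UMIs and in cell classes of the old library and the young library, with 95% Poisson intervals. Snhg11 spreads from 0.0338 in unnamed barcodes to 16.6 in melanotroph-like cells of the old library, while Snhg18 stays between 0.261 and 5.56.

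Within somatotroph-like cells the libraries fell into different clusters, and Snhg11 was higher in the old library in each. Cluster 1 held 39 old and 2032 young cells and cluster 8 held 510 old and 21 young cells, so most cells of large depth were split by library. Snhg11 was at 46.4 CPM in old and 18.5 CPM in young cells of cluster 1, a ratio of 2.50 (1.55 to 3.84). In cluster 8 it was at 106 CPM in old and 11.7 CPM in young cells (2 UMIs), a ratio of 9.06 (2.50 to 74.98). Clusters 2 and 5, which both libraries fill, gave 6.52 (5.46 to 7.82) and 6.12 (4.75 to 7.94). Split by depth into 3 equal groups, shallow, middle and deep somatotroph-like cells held 397, 153 and 103 CPM in the old and 57.8, 28.9 and 16.5 CPM in the young library. Snhg11 was therefore lower in deeper cells of both ages, and higher in old cells at each depth.

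Malat1 was higher in the old library by a small amount in all 10 classes, with ratios of 1.13 to 1.71, none at 2-fold. Subtracting free RNA of at most 100 UMIs, in an amount set from haemoglobin UMIs, made the ratio 2.06 in endothelial cell-like cells. It took 51.11% of old and 56.15% of young UMIs of that class as free RNA. Somatotroph-like cells held 59746 CPM in old and 46250 CPM in young glands, a ratio of 1.29 (1.29 to 1.30). Clustering each library alone turned this to 0.899, but that compares other cells, since 563 old cells bore the name, against 1133 above. A cluster of 598 old cells that scored highest for somatotroph had no name, as no somatotroph marker was among its 20 leading genes. Weighting the clusters as in the young library made the ratio 1.08. Lactotroph-like cells were at 73163 CPM in the old and 47435 CPM in the young library, a ratio of 1.54 (1.53 to 1.55). B cell-like cells had the highest ratio, 1.71 (1.67 to 1.76), and pituicyte-like cells the lowest, 1.13 (1.11 to 1.15). Other alternatives turned the direction in pituicyte-like cells (0.942 as a mean over cells, 0.953 after thinning), monocyte-like cells (0.960 without doublet removal) and macrophage-like cells (0.878 after subtraction of free RNA of 500 to 900 UMIs). By haemoglobin, that subtraction took 100% of young and 5.85% of old macrophage-like UMIs as free RNA, so no direction is read from 0.878. Ratios at least as high as that of Malat1 were found for 3076 of 14742 genes in somatotroph-like cells and 2092 of 11483 in lactotroph-like cells.

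Melanotroph-like cells had the most Malat1 in both libraries, at 97423 CPM in old and 95222 CPM in young cells, a level that differed little. Oligodendrocyte-like cells of the old library were at 86223 CPM. Fibroblast-like, stem cell-like, lactotroph-like, corticotroph-like and pituicyte-like cells followed in the old library, at 76896 to 65789 CPM. Immune classes were lower, with 38624 CPM in old and 28775 CPM in young macrophage-like cells and 21242 and 17010 CPM in monocyte-like cells. Erythroid cell-like barcodes were lowest in the old library, at 9983 CPM in 46 old barcodes, against 30083 CPM in 50 young ones. Over single cells, the median share of UMIs from Malat1 was 4.61% in old and 2.70% in young somatotroph-like cells, and 9.05% and 9.92% in melanotroph-like cells.

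In somatotroph-like cells Malat1 followed the depth and mitochondrial share of the cells. In the shallow, middle and deep groups of somatotroph-like cells it was at 122407, 76627 and 40115 CPM in the old and 110969, 56007 and 28585 CPM in the young library. Mitochondrial genes took 8.56%, 5.64% and 2.61% of UMIs in the old and 10.6%, 5.38% and 2.42% in the young groups, in the same order. Malat1 also fell with depth in old lactotroph-like and corticotroph-like cells. Not every class did so, and old macrophage-like cells held 33438, 42010 and 38130 CPM from shallow to deep. The cells differed in depth between ages, with medians of 6642 UMIs in old and 9698 UMIs in young somatotroph-like cells, and the part of depth in the ratio was not tested. Within clusters the Malat1 ratio was 1.04 (cluster 1), 1.09 (cluster 2), 1.21 (cluster 5) and 0.748 (cluster 8).

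**Figure D5:**
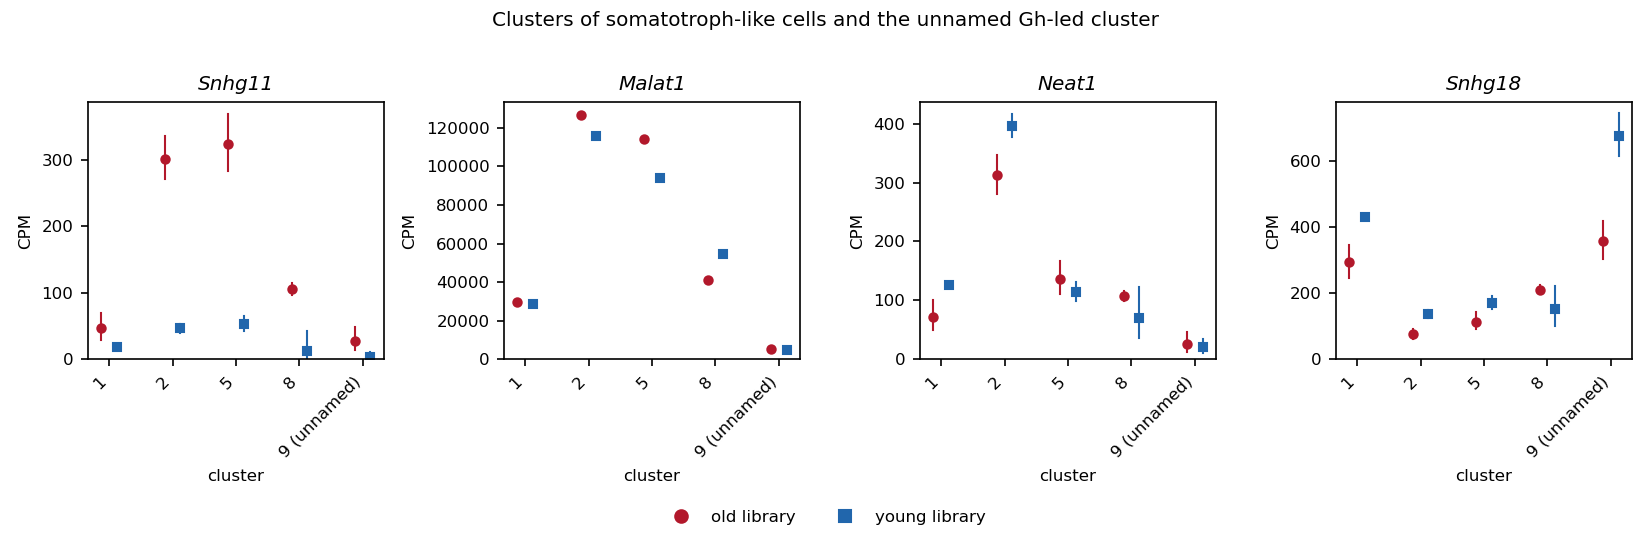
Level of each RNA in CPM (linear axis) in each somatotroph-like cluster and in the unnamed cluster 9 led by Gh, for the old library and the young library, with 95% Poisson intervals. Malat1 is at 5027 CPM in old and 5017 CPM in young barcodes of cluster 9, below the somatotroph-like clusters.

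Some barcodes outside the free RNA cluster were poor in this nuclear RNA. An unnamed cluster led by Gh, with 194 old and 323 young barcodes, had 5027 CPM in the old and 5017 CPM in the young library, and 84.5% of its old and 95.4% of its young barcodes had under 0.5% of UMIs from Malat1. Its mitochondrial share was 1.36% in old and 1.12% in young barcodes. Among corticotroph-like cells, cluster 12 (46 old and 176 young cells) was at 2531 and 2459 CPM, against 74915 and 56995 CPM in cluster 3. Macrophage-like cluster 14 was at 14406 CPM in the old and 6256 CPM in the young library, below 47001 and 32445 CPM in cluster 7. What these barcodes are was not tested.

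Malat1 in the smallest barcodes went against its direction in cells. It stood at 12115 CPM in the old and 31445 CPM in the young library in barcodes of at most 100 UMIs, a ratio of 0.385. In barcodes of 500 to 900 UMIs it was at 10116 CPM in the old and 7011 CPM in the young library. The young library was therefore uneven below the cells, and its 2 sets of small barcodes do not give the same background.

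Neat1 was highest in monocyte-like and neutrophil-like cells, and its age ratios pointed both ways. Monocyte-like cells were highest, at 1252 CPM in old and 1682 CPM in young glands, followed by neutrophil-like cells at 1227 CPM (66 old cells) and 1567 CPM (24 young cells), and these neighbours overlapped in both libraries. Macrophage-like cells held 661 CPM in the old and 1065 CPM in the young library, and stem cell-like cells 522 and 688 CPM. Oligodendrocyte-like cells of the old library, at 821 CPM (713 to 940), lay above the old cells of both these classes. Gonadotroph-like and melanotroph-like cells were among the lowest, at 71.7 and 80.7 CPM in the old and 45.7 and 22.4 CPM in the young library. Thinned to 2000 UMIs, 73.1% of old and 85.2% of young monocyte-like cells had a Neat1 UMI, against 9.86% of the old free RNA cluster.

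Of the 10 classes, 5 had a Neat1 interval below 1, 3 had one above 1 and 2 had one that held 1. The ratio was 0.621 (0.584 to 0.660) in macrophage-like, 0.744 (0.657 to 0.844) in monocyte-like, 0.759 (0.713 to 0.808) in stem cell-like, 0.767 (0.674 to 0.870) in corticotroph-like and 0.825 (0.770 to 0.882) in somatotroph-like cells. Scaling to all UMIs moved the ratio in somatotroph-like cells to 0.991. That total moved all genes of the class together, their median log2 ratio from 0.03 to 0.29, so 0.991 is to be read against the moved median. With cells thinned to 2000 UMIs the Neat1 ratio was 0.997 in monocyte-like and 0.960 in stem cell-like cells. Lactotroph-like cells went the other way, with 151 CPM (256 UMIs) in old and 52.7 CPM (149 UMIs) in young glands, a ratio of 2.86 (2.33 to 3.53). That was the 1 Neat1 ratio of at least 2, and 254 of 11483 genes reached as high a ratio there, where 6.68% of genes were at least 2-fold higher. Endothelial cell-like cells were at 332 CPM in the old and 205 CPM in the young library, a ratio of 1.62 (1.25 to 2.11), but 1 cell carried 26.5% of the old and 32.5% of the young UMIs, and thinning made it 1.08. B cell-like cells had a ratio of 1.46 (1.05 to 2.04). Subtracting free RNA of 500 to 900 UMIs turned the ratio in stem cell-like cells to 1.03. By haemoglobin, 64.2% of old and 29.5% of young UMIs of that class were then taken as free RNA. The difference in ratio between classes was not tested.

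The Neat1 shares of cells followed the levels in part. In lactotroph-like cells 15.9% of old and 5.87% of young cells had a Neat1 UMI after thinning, and in macrophage-like cells 42.3% and 55.3%. Somatotroph-like cells gave 13.5% in the old and 11.7% in the young library, the opposite order to their CPM, so no order is read from them. Endothelial cell-like shares were 19.2% in the old and 21.2% in the young library, also opposite to their CPM. In the smallest barcodes Neat1 was at 104 CPM in the old and 188 CPM in the young library, and in barcodes of 500 to 900 UMIs at 84.3 and 39.8 CPM. Old lactotroph-like cells lay at 1.45 times and young ones at 0.281 times the level of the smallest barcodes. The part of free RNA in the lactotroph-like ratio was not tested.

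Within the macrophage-like class cluster 7 was at 586 CPM in 216 old cells and 1220 CPM in young cells, a ratio of 0.480. Cluster 10 was at 941 CPM in the old and 975 CPM in the young library, a ratio of 0.965. Cluster 14 went the other way, at 44.5 CPM (10 UMIs) in the old and 13.0 CPM (3 UMIs) in the young library, with an interval of the ratio that held 1 (0.880 to 19.3). In somatotroph-like cells the ratio was 0.570 (0.394 to 0.799) in cluster 1 and 0.789 (0.701 to 0.885) in cluster 2. It was 1.20 (0.924 to 1.54) in cluster 5 and 1.52 (0.864 to 2.96) in cluster 8, which held 12 young UMIs. The interval thus lay below 1 in 2 of the 4 clusters and held 1 in the other 2.

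Snhg18 was highest in somatotroph-like cells, with 186 CPM in old and 367 CPM in young glands, a ratio of 0.509 (0.481 to 0.538). The next class, fibroblast-like cells, overlapped it in both libraries, at 173 CPM (128 to 228) in the old and 309 CPM (226 to 413) in the young one. The ratio lay just short of a 2-fold fall, which 3.57% of genes reached in this class. In stem cell-like cells it was 0.698 (0.567 to 0.855), with 49.4 CPM in old and 70.7 CPM in young cells. Corticotroph-like cells went the other way, at 136 CPM in the old and 98.0 CPM in the young library, a ratio of 1.39 (1.22 to 1.57). In the other 7 classes the interval held 1, as in lactotroph-like cells with 162 CPM in the old and 171 CPM in the young library. Levels were lowest in immune and endothelial cell-like cells, at 30.9 to 46.0 CPM in the old and 24.2 to 70.2 CPM in the young library over the 5 such classes compared.

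Snhg18 was also carried by barcodes rich in Gh outside the named classes. The unnamed cluster led by Gh had 357 CPM in the old and 677 CPM in the young library. Barcodes of at most 100 UMIs were at 179 CPM in the old and 319 CPM in the young library, a ratio of 0.562, and those of 500 to 900 UMIs at 188 and 367 CPM. The levels of somatotroph-like cells were thus 1.04 times (old) and 1.15 times (young) those of the smallest barcodes of their library. Per 1000 Gh UMIs, somatotroph-like cells held 0.355 Snhg18 UMIs in the old and 0.436 in the young library, the unnamed cluster 0.431 and 0.458, and the smallest barcodes 0.376 and 0.403. Gh itself took 32.9% of UMIs in old and 43.8% in young somatotroph-like cells. Relative to Gh the libraries were therefore closer than on the CPM scale, and the part of free RNA was not tested. Corticotroph-like cells were apart from these, with 3.87 Snhg18 UMIs per 1000 Gh UMIs in the old and 1.77 in the young library. So were other classes, such as fibroblast-like (5.56 and 4.63) and lactotroph-like cells (2.19 and 1.12). Gh took 2.90% of UMIs in old and 4.74% in young corticotroph-like cells. In CPM, Snhg18 in corticotroph-like cells lay at 0.76 times (old) and 0.307 times (young) the level of the smallest barcodes.

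In contrast to Snhg11 and Malat1, Snhg18 was higher in deep somatotroph-like cells. The shallow, middle and deep groups had 79.5, 139 and 228 CPM in the old and 142, 244 and 471 CPM in the young library. By cluster the ratio was 0.681 (cluster 1), 0.549 (cluster 2), 0.666 (cluster 5) and 1.38 (cluster 8, with 21 young cells).

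Likeness of pattern was measured over 20 points, the 10 classes in each library, as the Pearson correlation of log2(CPM + 5) among 7116 genes. The points share libraries, depth and free RNA, so the values are descriptions. Nearest to Snhg11 were Srrm1 (0.91) and Srrm2 (0.88), both coding for proteins of nuclear speckles, then Relch (0.88), the RNA-binding protein gene Hnrnpa2b1 (0.86) and Uty (0.86). Nearest to Malat1 were Ncbp2 (0.96), which codes for a subunit of the nuclear cap-binding complex, Pnisr (0.95), Nicn1 (0.94), Dtx3 (0.94) and Zmym4 (0.93). Neat1 was nearest to Lgals3 (0.95), the galectin-3 gene of macrophages, Vps26a (0.91), Gltp (0.90), Zeb2 (0.89) and Hpgd (0.89). Snhg18 was nearest to Stt3a (0.95), a catalytic subunit gene of the enzyme that attaches sugar chains to proteins, Gmppb (0.92), Sec22b (0.92), Minar2 (0.92) and Pgm3 (0.92). Between the RNAs themselves the values ran from -0.74 (Neat1 with Snhg18) to 0.75 (Snhg11 with Malat1).

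Related genes differed little between ages in somatotroph-like cells, where the median log2 ratio of all genes was 0.03. Of 17 measured small nucleolar RNA host genes, none was 2-fold higher or lower, 9 were on the higher side, and the median was 0.02. Epb41l4aos was at 52.5 CPM in old and 35.9 CPM in young cells, and Snhg3 at 78.0 and 94.0 CPM. The other long noncoding RNAs, 22 measured, had a median of 0.16 with none at 2-fold; Sox2ot was at 3.97 CPM in the old and 2.09 CPM in the young library, and Mir100hg at 3.44 and 6.71 CPM. In corticotroph-like cells 4 of 21 such RNAs were at least 2-fold higher, where 4.01% of all genes were, and in macrophage-like cells 5 of 20, where 7.2% of all genes were, and none was 2-fold lower in either.

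Genes of the proteins in the nuclear bodies had medians above that of all genes in somatotroph-like cells, which was not so in every class. For 14 paraspeckle protein genes the median log2 ratio in somatotroph-like cells was 0.24, with none at 2-fold. Sfpq, whose product binds Neat1, was at 284 CPM in old and 209 CPM in young cells, and Dazap1 at 45.3 and 49.5 CPM. For 19 speckle and splicing genes the median was 0.29, again with none at 2-fold. Srsf1 was at 143 CPM in the old and 88.2 CPM in the young library, and Ddx39b at 125 and 150 CPM. Scaling to all UMIs moved all ratios in this class up together, the median of all genes to 0.29, so the medians are to be read against 0.03.

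Neuronal and secretory granule genes were counted beside Snhg11. In somatotroph-like cells, where 5.32% of all genes were at least 2-fold higher, 2 of 16 were, Chga (250 CPM in old and 104 CPM in young cells) and Pcsk2 (53.6 and 23.1 CPM). Chga codes for chromogranin A, a granule protein, and Pcsk2 for a prohormone convertase, and both were higher in the smallest barcodes than in these cells, at 510 and 153 CPM in the old and 202 and 42.9 CPM in the young library. Stmn2 was the 1 gene at least 2-fold lower, with 12 old and 95 young UMIs. In corticotroph-like cells 3 of 16 (4.01% of all genes) and in lactotroph-like cells 2 of 15 (6.68%) were at least 2-fold higher. The counts were 12 of 16 in stem cell-like (4.39% of all genes), 9 of 15 in pituicyte-like (8.94%) and 9 of 15 in macrophage-like cells (7.2%), with median log2 ratios of 1.41, 1.86 and 1.19. They were 6 of 13 in B cell-like (10.5%), 5 of 13 in endothelial cell-like (7.06%), 4 of 14 in T or NK cell-like (8.66%) and 4 of 11 in monocyte-like cells (5.24%). Differences between classes were not tested. The part of free RNA, in which Chga and Pcsk2 also differed between ages, was not tested.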

How the data were processed

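The deposited matrices give whole-number UMI counts for each gene in every barcode, and the authors had neither called cells nor normalised them, as the values show. The submitters' processing notes name the build GRCm39 and Cell Ranger 6.0.2, while the file headers name version 4 of that software, and whether intronic reads were counted is not given in the sources used here. All columns were mapped to a sample.

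Barcodes were kept with at least 2000 UMIs, 500 genes and at most 15% mitochondrial UMIs. Scrublet's threshold called 0.031% of old and 0.0% of young barcodes, so the top-scoring 766 old and 679 young barcodes were taken out, the number expected from the load. Both libraries were clustered together from 3000 variable genes without the 4 RNAs and mitochondrial genes, with 40 components rounded to 3 decimals, 15 neighbours and Leiden resolution 1. Clusters were named "like" a class from markers, needing a score of 1, 0.5 more than the next class, and 3 detected markers. The rules also asked for a marker of the class among the 20 leading genes, and not more markers of another class among the first 10. A cluster whose profile correlated at 0.95 or more with barcodes of 10 to 100 UMIs was called free RNA.

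UMIs were summed per class and library. CPM carry exact Poisson intervals, ratios exact conditional Poisson intervals, and shares of cells Clopper-Pearson intervals at 95%. Reads sharing a barcode and molecule tag count once, and intervals cover counting error only. Named genes are the 4 RNAs, the 5 most alike each by correlation, and the 2 highest and 2 lowest of each list in somatotroph-like cells. Stmn2 was named after its values were seen. The members, lists and markers were chosen with earlier results of these data known. The calculation of ratios was tested on simulated data. Alternatives changed the filters, doublet removal, clustering, scaling totals, free RNA subtraction, weights of clusters and cell depth. The amount of free RNA subtracted from a class was set by its haemoglobin UMIs, up to all of its UMIs. The tools were scanpy 1.11.5 with igraph 0.11.9 for clustering, and scipy 1.17.1 for intervals, in Python 3.11.15.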

Additional observations from a re-analysis of the deposited data

Results flagged for a closer look

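The old over young ratio of Neat1 ran in opposite directions between classes. It was 2.86 in lactotroph-like and 1.62 in endothelial cell-like cells, where the old library was higher, and 0.621 in macrophage-like cells, where the old library was lower. These values were flagged because their counting intervals lie on opposite sides of 1 and each ratio is at least 1.5-fold away from 1. Other classes with intervals off 1 had smaller differences. The endothelial cell-like ratio came close to 1 after thinning, as given above. The difference between the classes was not tested, since each age is 1 library.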

How the results depend on the processing

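In somatotroph-like cells, Snhg11 kept a ratio above 1 and Neat1 and Snhg18 ratios below 1 under all 17 alternatives, and Malat1 a ratio above 1 under 15 of 16. Clustering each library alone gave 4.05 for Snhg11, 0.899 for Malat1, 0.633 for Neat1 and 0.572 for Snhg18. Scaling to all UMIs gave 7.31, 1.55, 0.991 and 0.611 in the same order of RNAs, and leaving out mitochondrial genes only gave 7.32, 1.55, 0.991 and 0.611. Both totals moved all genes of the class together, their median log2 ratio from 0.03 to 0.29. Weighting clusters as in the young library gave 4.16, 1.08, 0.680 and 0.675. Malat1 was at 1.29 with a minimum of 1000 UMIs, 1.44 with a mitochondrial limit of 10%, 1.24 without doublet removal, 1.26 at resolution 0.5, 1.31 without the 4 RNAs in the total and 1.26 with median-of-ratios factors. Subtracting free RNA gave Malat1 1.30 with the profile of at most 100 UMIs and 1.21 with that of 500 to 900 UMIs, which gave Neat1 0.766. As a mean over cells Malat1 was at 1.21 and Neat1 at 0.914, and with cells thinned to 2000 UMIs at 1.17 and 0.910. With no minimum of UMIs, 14.9% of genes were at least 2-fold higher in the old library, against 5.32%. Apart from the change of total, the cause of these shifts was not tested.

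In the other classes Snhg11 kept its direction in 80 of 80 values (5 classes with a ratio), Malat1 in 133 of 137, Neat1 in 138 of 146 and Snhg18 in 127 of 139. The Neat1 exceptions included 1.03 in stem cell-like cells. Over these values Snhg11 ran from 1.37 to 51.5, Malat1 from 0.878 to 2.06, Neat1 from 0.356 to 3.29 and Snhg18 from 0.337 to 3.56. Snhg11 moved over 1.5 times in pituicyte-like cells (1.37 thinned, 2.11 as a mean over cells, 8.78 with a mitochondrial limit of 10%), stem cell-like cells (18.3 without doublet removal, 22.6 thinned) and macrophage-like cells (5.81 without doublet removal, 20.2 as a mean over cells, 20.7 thinned). With free RNA of 500 to 900 UMIs subtracted, Neat1 was at 0.356 in macrophage-like cells and Snhg18 at 3.56 in B cell-like and 1.14 in T or NK cell-like cells. By haemoglobin, that took 100% of young and 5.85% of old macrophage-like UMIs as free RNA, so nothing is read from 0.356. Thinning gave Snhg18 0.589 in macrophage-like, 1.02 in monocyte-like and 0.337 in T or NK cell-like cells, and leaving doublets in gave 0.385 in B cell-like cells. No paired analysis was possible because each age is 1 library of different pooled mice. Free RNA limits low levels, and the pooled glands give no spread between mice.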
